A study of Mus musculus with 4 samples.

Results

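The genes described here encode 10 subunits of the AMPA and NMDA receptors, and they were found by their symbols in the deposited table of mRNA levels. The table held all of them (4 AMPA and 6 NMDA subunit genes) among 17778 genes. The mRNA had been sequenced from the mPFC (medial prefrontal cortex, the inner wall of the frontal lobe, taken on both sides) of male C57BL/6 (in the methods, C57BL/6J) mice that were juvenile when the experiment began. Mice of the CUMS group (2 libraries) had lived for weeks under chronic unpredictable mild stress, and only stressed mice that changed in each of the behavior tests for depression-like state were used. Mice of the Control group (2 libraries) were kept without these stresses. No gene had been altered in either group. The model covers the stressed mice that became depression-like, and stressed mice without this state were not among the libraries.

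AMPA and NMDA receptors are the channels that glutamate opens at most excitatory synapses of the cortex. An AMPA receptor is a tetramer of the proteins GluA1 to GluA4 (genes Gria1 to Gria4) and carries the fast excitatory current. An NMDA receptor contains the obligatory protein GluN1 (Grin1) together with GluN2 proteins (Grin2a to Grin2d) or GluN3 proteins (Grin3a), needs glutamate with glycine or D-serine, admits calcium, and is known for its part in synaptic plasticity.

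The values were RPKM, which divides the reads of a gene by its length and by the library's read total, so that levels of different genes can be compared per length. The authors had averaged them within each group before deposit. Each gene therefore had 1 Control mean and 1 CUMS mean, no difference below has a replicate check, and the spread between mice is unknown. An interval below covers counting error only, at the 95% level, from fragment numbers estimated out of the table (8403361 per Control library and 8517888 per CUMS library). Of 17778 genes, 14257 reached 0.5 RPKM in at least 1 group and formed the background, and all 10 subunit genes were among them. The median log2 ratio of CUMS over Control in this background was -0.015, and its 5th and 95th percentiles were -0.54 and 0.42.

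The subunit genes are related by descent, and only uniquely aligned reads had been counted, so the likeness of their sequences could bear on the values. In the coding sequences of GENCODE M21, the longest run of identical bases shared by 2 members was 41 bases (Gria2 and Gria4). The read length given by the paper is longer than this run. Among the 6 pairs of AMPA genes this run was 17 to 41 bases, among the 15 pairs of NMDA genes it was 12 to 34 bases, and between the families it was at most 24 bases (24 pairs). The stretch of 60 coding bases inside single exons in which Gria1, Gria3 and Gria4 together were most like Gria2 is shown for the AMPA genes, to let the bases that tell them apart be seen. How reads were assigned there was not measured. It encodes the start of the first membrane segment. Capitals mark the bases that differ from Gria2. It lies at chr3:80707067-80707126 (minus strand, exon 11) in Gria2, at chr11:57242881-57242940 (plus strand, exon 11) in Gria1, at chrX:41610046-41610105 (plus strand, exon 11) in Gria3 and at chr9:4464293-4464352 (minus strand, exon 12) in Gria4, on GRCm38.
Gria2: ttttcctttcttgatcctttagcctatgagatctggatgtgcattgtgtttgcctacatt
Gria1: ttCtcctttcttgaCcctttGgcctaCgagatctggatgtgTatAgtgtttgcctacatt
Gria3: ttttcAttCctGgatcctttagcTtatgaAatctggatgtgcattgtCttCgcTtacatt
Gria4: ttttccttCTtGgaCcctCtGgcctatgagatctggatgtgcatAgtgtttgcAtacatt

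In this stretch Gria1 differed from Gria2 at 6 of 60 bases, and Gria3 and Gria4 each differed at 8.

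The first question was how much mRNA of each subunit the mPFC held. In Control mice the order per length was Grin1, Gria1, Gria2, Gria3, Grin2c, Gria4, Grin3a, Grin2d, Grin2a and Grin2b. The order in CUMS mice was the same apart from an exchange of Gria4 and Grin2c. Levels ranged from 209 RPKM for Grin1 down to 0.56 RPKM for Grin2b in Control, where the background genes had a median of 9.03 RPKM.

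**Figure D1:**
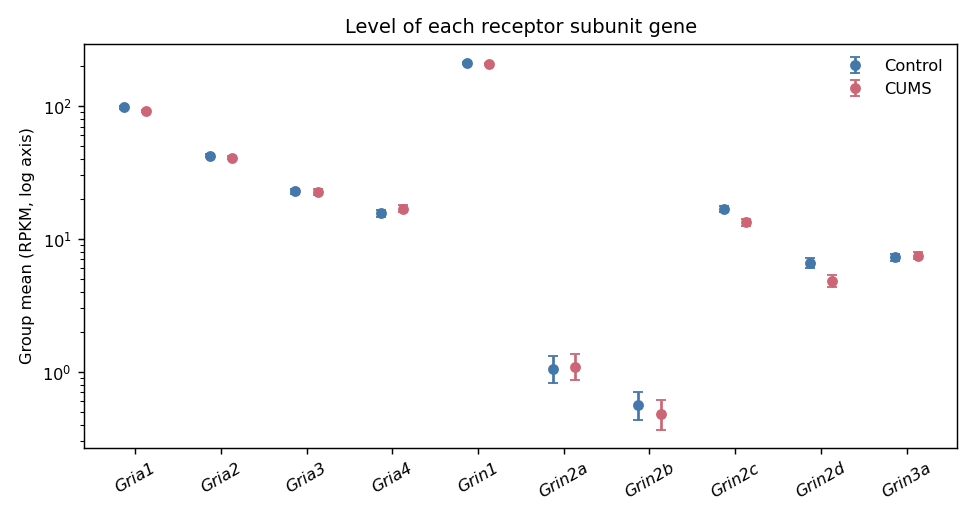
Group mean of each subunit gene in RPKM on a log axis, Control in blue and CUMS in red. The points are the authors' group means and the bars are 95% counting intervals (exact Poisson), which hold no spread between mice. Grin1 is the highest at 209 and 207 RPKM, and Grin2a and Grin2b are the lowest, at 1.09 RPKM or less in both groups.

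Among the AMPA genes, Gria1 (gene 14799, chr11:57011571-57330244) was the most abundant, with 97.5 RPKM in Control and 91.8 RPKM in CUMS. Its protein GluA1 is the subunit best known for being added to synapses during potentiation. Gria2 (gene 14800, chr3:80681450-80804227), whose RNA-edited protein keeps AMPA receptors nearly closed to calcium, had 42.2 and 40.8 RPKM. Gria3 (gene 53623, chrX:41400819-41678601) had 22.7 RPKM in Control and 22.5 RPKM in CUMS, and it commonly pairs with GluA2 in cortical receptors. Gria4 (gene 14802, chr9:4417893-4796234), a subunit of fast receptors found on interneurons among other cells, had 15.6 and 16.9 RPKM.

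Among the NMDA genes, Grin1 (gene 14810, chr2:25291177-25319187) stood first of all 10 members and ranked 288th of 17778 genes in Control. An antisense gene, E130003G02Rik (gene 320354, chr2:25291258-25298660, also called Grin1os), lies inside its span. The use of strand in the counting was not stated, so that reads of Grin1 and of the antisense gene could not be told apart in their shared part, and the antisense gene itself had 19.9 RPKM in Control and 19.4 RPKM in CUMS. Grin2c (gene 14813, chr11:115249169-115267297), best known from the cerebellum and from astrocytes, had 16.8 RPKM in Control and 13.3 RPKM in CUMS. Grin3a (gene 242443, chr4:49661611-49846023), whose protein lowers the calcium permeability of NMDA receptors, had 7.26 and 7.46 RPKM. Grin2d (gene 14814, chr7:45831883-45871194), whose slowly closing receptors occur on cortical interneurons, had 6.61 and 4.85 RPKM.

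Grin2a and Grin2b, known as the main GluN2 genes of the adult forebrain, had the lowest levels of the 10 members in both groups. Grin2a (gene 14811, chr16:9567901-9996083) had 1.04 RPKM in Control and 1.09 RPKM in CUMS, on 78 and 82 fragments over both libraries of a group. Grin2b (gene 14812, chr6:135713221-136173615) had 0.56 and 0.48 RPKM, on 70 and 61 fragments. They ranked 12818th and 13824th of 17778 genes in Control.

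Most neighbours in the order were further apart than counting error. In Control, Grin2c (interval 15.9 to 17.7 RPKM) and Gria4 (14.7 to 16.6) overlapped, and so did Grin3a (6.80 to 7.74) and Grin2d (6.03 to 7.23). In CUMS, Gria4 (15.9 to 17.9 RPKM) lay above Grin2c (12.5 to 14.1), and Grin3a (7.0 to 7.95) lay above Grin2d (4.36 to 5.38).

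Levels per length rest on the gene length in the table, and for several members this length was shorter than the annotation used here. For Grin2b the table used 7515 bases, which was 31.2% of the longest GENCODE M21 transcript (24060 bases). For Grin2a it used 4512 bases, which was 30.8% of the longest transcript (14634 bases). These 2 genes were the lowest members and also those with the smallest share. Gria2 (63.2%) and Gria4 (75.9%) were next, and the remaining 6 members had lengths of 80.7% to 103% of the longest transcript.

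**Figure D2:**
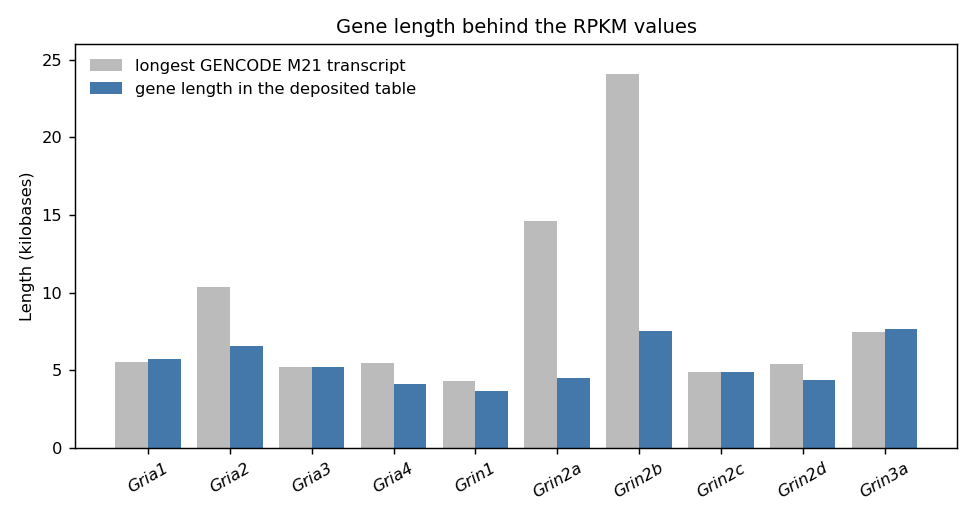
Length in kilobases of each subunit gene, as used in the deposited table (blue bars) and as the longest protein-coding transcript of GENCODE M21 (grey bars). The table's length is under 32% of the longest transcript in Grin2a and Grin2b, and 63.2% or more in the other 8 genes.

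Of 13566 background genes with a transcript length in GENCODE, 757 (5.58%) had less than 50% of the longest transcript in the table, and their median Control level was 8.29 RPKM. The median was 10.7 RPKM over the 1509 genes with 50% to 80%, and 9.59 RPKM over the 11300 genes with 80% or more. The part of the gene model in the low values of Grin2a and Grin2b was not tested, and their levels relative to other subunits are uncertain.

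The second question was whether the subunits differed between CUMS and Control mice. The genes with a lower level in CUMS beyond counting error were Grin2d, Grin2c and Gria1. The remaining 7 had counting intervals that included equal expression. No member passed the 1.5-fold threshold of the study's methods (0 of 10), which 7.18% of background genes passed in either direction. The study also required a minimum probability of difference, which was not used here, so this share is not that of its own calls. A smaller difference, of more than 0.32 on the log2 scale in either direction, was reached by Grin2c and Grin2d (2 of 10) and by 18.9% of background genes. The interval lay below equal expression in 3 of 10 members, where 18.2% of background genes had such an interval, and above it in 0 of 10, where the share was 13.2%. With 10 members these counts are not far from the background.

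**Figure D3:**
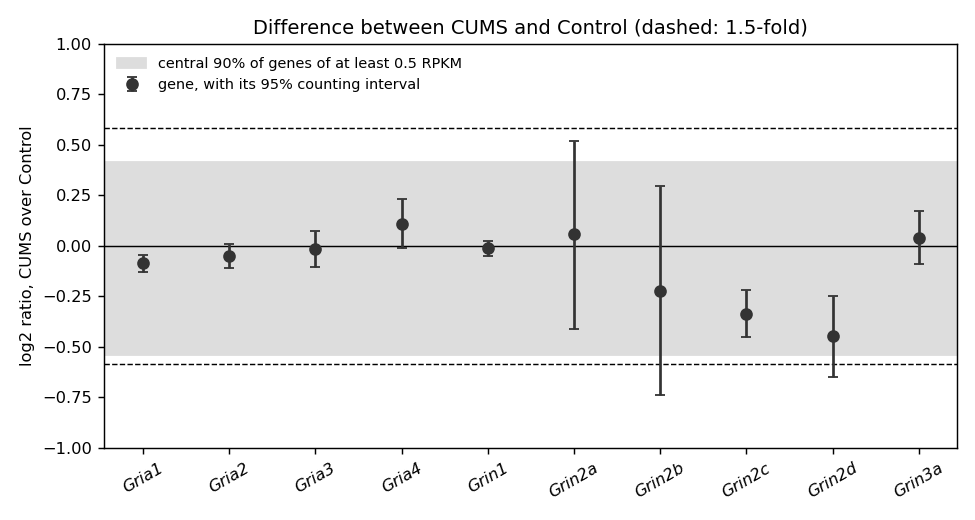
CUMS over Control as a log2 ratio of group means for each subunit gene, with its 95% counting interval. The grey band runs from the 5th to the 95th percentile (-0.54 to 0.42) of 14257 background genes, and dashed lines mark 1.5-fold. All 10 points lie inside the band, with Grin2d (-0.45) and Grin2c (-0.34) nearest to its lower edge.

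Grin2d had the largest difference. It went from 6.61 RPKM in Control (479 fragments) to 4.85 RPKM in CUMS (356 fragments), a log2 ratio of -0.45 (interval -0.65 to -0.25), which is 1.36-fold lower. Grin2c had 16.8 RPKM in Control (1360 fragments) and 13.3 RPKM in CUMS (1092 fragments), a log2 ratio of -0.34 (-0.45 to -0.22) and 1.26-fold lower. Both lay inside the central range of the background. Among the 9397 genes that reached 5 RPKM in Control or CUMS, whose values are less noisy, the 5th percentile was -0.33, and both genes lay below it.

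Gria1 had a log2 ratio of -0.09 (-0.13 to -0.04), 1.06-fold lower. This small difference exceeded counting error because Gria1 rested on 9214 and 8793 fragments, and its size was near the middle of the background, whose 25th percentile was -0.15. The other AMPA genes had log2 ratios of -0.05 for Gria2 (-0.11 to 0.01), -0.01 for Gria3 (-0.11 to 0.08) and 0.11 for Gria4 (-0.01 to 0.23). The median over the 4 AMPA genes was -0.03.

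Grin1 was the best measured NMDA gene, with 12599 and 12663 fragments, and its log2 ratio of -0.01 had an interval of -0.05 to 0.02. Grin3a had 0.04 (-0.09 to 0.17). The ratios of Grin2a (0.06, interval -0.41 to 0.52) and Grin2b (-0.22, interval -0.74 to 0.30) were poorly determined. The observed difference of Grin2b was not detectable at this depth. The median over the 6 NMDA genes was -0.12, and with a pseudocount of 0.5 RPKM it was -0.06, as Grin2b then had -0.11.

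The third question was whether the make-up of the receptors' mRNA differed. Shares within a group do not depend on how the groups were scaled to each other, although they do depend on gene lengths. Gria1 made up 54.8% of the summed AMPA RPKM in Control (interval 54.0 to 55.5) and 53.4% in CUMS (52.6 to 54.2). Gria2 made up 23.7% in both groups (23.1 to 24.3 in each). Gria3 made up 12.8% and 13.1%. Gria4 had 8.77% in Control (8.29 to 9.28) and 9.80% in CUMS (9.29 to 10.3), so its share was larger in CUMS and that of Gria1 was smaller, with changes in the odds on the log2 scale of 0.18 (0.05 to 0.30) and -0.08 (-0.14 to -0.02). For Gria2 this change was within -0.07 to 0.07.

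**Figure D4:**
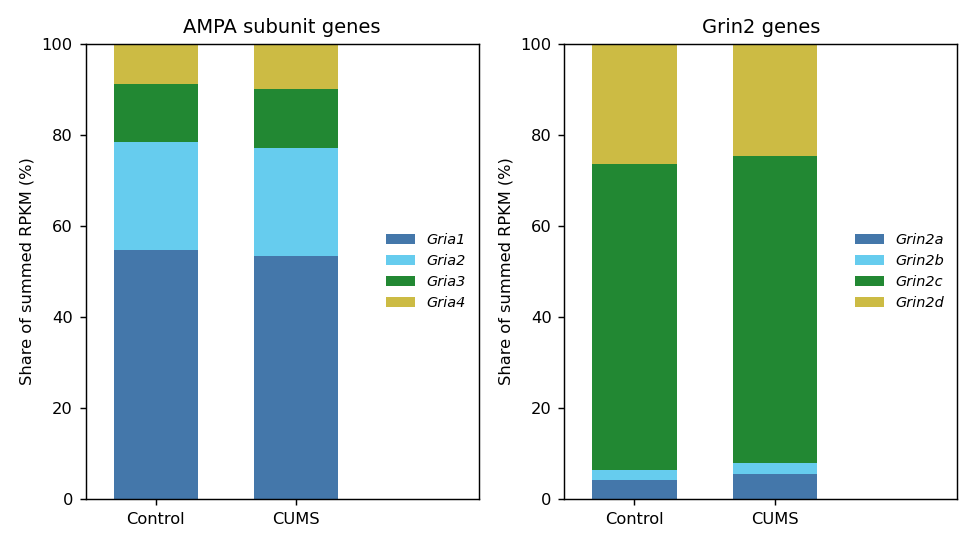
Share of each gene in the summed RPKM of the 4 AMPA subunit genes (left) and of the 4 Grin2 genes (right), in percent, for Control and CUMS. Gria1 makes up 54.8% and 53.4% of the AMPA sum, and Grin2c makes up 67.1% and 67.4% of the Grin2 sum.

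Among the Grin2 genes, Grin2c made up 67.1% of the summed RPKM in Control and 67.4% in CUMS, and Grin2d made up 26.4% and 24.6%. Grin2a had 4.18% and 5.53%, and Grin2b had 2.24% and 2.43%. With the longest annotated transcript as the length, these shares were 1.42% and 1.90% for Grin2a, and 0.77% and 0.85% for Grin2b. This rescaling added no reads from the added length, so it could only lower the levels of Grin2a and Grin2b. No Grin2 share differed beyond counting error, and for Grin2d the change in the log2 odds had an interval of -0.37 to 0.09. The ratio of Grin2b over Grin2a, which falls during postnatal development of the cortex, was 0.54 in Control (0.39 to 0.74) and 0.44 in CUMS (0.32 to 0.61). Its change of -0.28 on the log2 scale had an interval of -0.95 to 0.38. Since both genes rest on few fragments and shortened lengths, this ratio carries little information.

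The summed Grin2 level was 0.120 of the Grin1 level in Control (0.114 to 0.125) and 0.095 in CUMS (0.090 to 0.10). This ratio was lower in CUMS by 0.33 on the log2 scale (-0.43 to -0.23), which followed Grin2c and Grin2d, the genes that make up most of the sum. Grin1 accordingly took 86.6% of the NMDA sum in Control (86.2 to 87.1) and 88.4% in CUMS (88.0 to 88.9). The AMPA sum was 0.738 of the NMDA sum in Control (0.722 to 0.754) and 0.733 in CUMS (0.717 to 0.749). This ratio differed by less than counting error (log2 change -0.01, interval -0.05 to 0.04), and most of the NMDA sum is Grin1. With Grin1 left out, the AMPA sum was 5.52 times the sum of the Grin2 genes and Grin3a in Control and 6.33 times in CUMS, a log2 change of 0.20 (0.11 to 0.28). Every sum here that holds the Grin2 genes rests on the uncertain levels of Grin2a and Grin2b. The intervals do not cover this, so the balance of all Grin2 mRNA to Grin1 remains uncertain.

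The fourth question was how proteins that work with these receptors behaved. Auxiliary subunits of AMPA receptors set their gating and their delivery to synapses. Of 13 genes listed, 12 were in the table and in the background, with 5 higher and 7 lower means in CUMS. The interval lay above equal expression in 3 of 12, where the background had 13.2%, and below it in 3, where the background had 18.2%. The median log2 ratio was -0.01. Cacng5, a member of the TARP family, was the only one past 1.5-fold (1 of 12, where the background had 7.18%). Its level of 10.7 RPKM in Control compared with 5.52 RPKM in CUMS (log2 ratio -0.96, interval -1.15 to -0.77). Shisa6, which holds AMPA receptors at the synapse, had -0.42 (-0.68 to -0.15) at a level of 2.23 RPKM in Control.

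The cornichon gene Cnih3 had 35.1 RPKM in Control and 44.3 RPKM in CUMS (log2 ratio 0.34, interval 0.24 to 0.43). Gsg1l had 32.1 and 37.6 RPKM (0.23, interval 0.14 to 0.31). The most abundant auxiliary gene per length was Cnih2, at 209.8 and 206 RPKM (log2 ratio -0.02, interval -0.09 to 0.04). Auxiliary genes thus differed in both directions.

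Genes for the assembly, anchoring and traffic of AMPA receptors numbered 15, with 10 higher and 5 lower means in CUMS and a median of 0.05. The interval lay above equal expression in 5 and below it in 3 of 15 (background 13.2% and 18.2%), and 0 passed 1.5-fold (7.18%). Nptxr, the receptor of the neuronal pentraxins that cluster AMPA receptors, had 219 RPKM in Control and 304 RPKM in CUMS (log2 ratio 0.47, interval 0.44 to 0.50). Grip1, a PDZ protein that binds GluA2, had 0.25 (0.04 to 0.46). Its relative Grip2 differed in the other direction, with -0.44 (-0.58 to -0.29), and the activity-regulated pentraxin Nptx2 had -0.25 (-0.37 to -0.13). Nsf, an ATPase of membrane fusion that binds GluA2, was the most abundant in Control, with 280.1 RPKM there and 299 RPKM in CUMS.

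Genes that supply or clear the co-agonists of NMDA receptors numbered 7, of which 6 were in the table and 5 in the background. The median was 0.03, with an interval above equal expression in 1 of 5 (background 13.2%), below it in 1 (18.2%), and 0 past 1.5-fold (7.18%). Srr, which makes D-serine, had the highest ratio at 0.20 (0.09 to 0.30), and Shmt2, which makes glycine in mitochondria, had 0.19 (-0.01 to 0.40). Slc6a9, the glycine transporter GlyT1, had 19.2 RPKM in Control and 13.1 RPKM in CUMS (log2 ratio -0.55, interval -0.69 to -0.41). Slc7a10, a transporter of D-serine and other small amino acids, had -0.12 (-0.28 to 0.04), and Slc1a4, a transporter of neutral amino acids, was the most abundant in Control at 25.8 RPKM.

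Of 10 signalling partners and regulators of NMDA receptors, 5 had higher and 5 lower means, with a median of -0.03. Against these background shares of 13.2%, 18.2% and 7.18%, the interval lay above equal expression in 3 of 10 and below it in 1, and 0 passed 1.5-fold. The calcineurin subunit gene Ppp3ca had 0.28 (0.23 to 0.33), and Camk2a, the alpha subunit of the kinase that calcium through NMDA receptors activates, had 828 RPKM in Control and 958 RPKM in CUMS (log2 ratio 0.21, interval 0.20 to 0.22). Ptpn5, the phosphatase STEP that acts on GluN2B, had 106 and 90.2 RPKM (-0.23, interval -0.29 to -0.18). Rest, a repressor of neuronal genes, had -0.42 (-1.16 to 0.33) on 38 and 29 fragments.

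**Figure D5:**
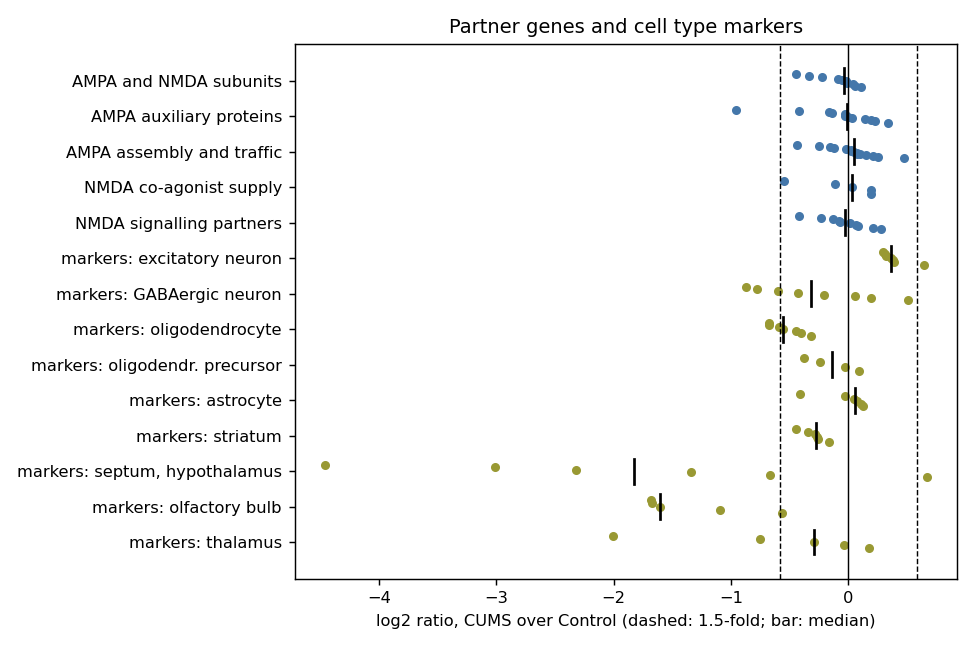
Log2 ratio of CUMS over Control for each background gene in the receptor and partner lists (blue points) and in the cell type marker lists (olive points), with the median of each list as a black bar. Medians of the receptor and partner lists lie between -0.03 and 0.05, whereas marker medians run from -1.83 for septum and hypothalamus to 0.36 for excitatory neurons.

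Several lists of markers of the cells in the dissected tissue differed between the groups, and their part in the differences above was not tested. Not all lists did so clearly. The interval included equal expression in 3 of 6 astrocyte, 2 of 4 oligodendrocyte precursor and 4 of 5 thalamic markers. Of background genes, 18.2% had an interval below equal expression and 13.2% had one above it. In bulk tissue, fewer cells of a type and less RNA per cell cannot be told apart. Neocortical excitatory neuron markers, which check the labelled tissue, were all present and had higher means in CUMS in 7 of 7 genes (median log2 ratio 0.36, sums of 1434 and 1828 RPKM). Nrgn was the highest of them. Of the 10 subunit genes, which these neurons also express, 0 had an interval above equal expression, where the background had 13.2%. With 10 genes this count is not far from the background. Gria4 also lay above equal expression once all CUMS values were raised by 0.015 on the log2 scale, which centred the background on 0. Whether the subunit genes followed the excitatory neuron markers was not tested.

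GABAergic neuron markers, the class in which Grin2d and Gria4 are known to be prominent, had lower means in 5 of 8 genes (median -0.32, sums of 789 and 683 RPKM). Gad2 had -0.88 and Gad1 had -0.60, whereas Sst, the highest marker, had 0.05 and Vip had 0.51. Astrocyte markers, of interest for Grin2c, had higher means in 4 of 6 genes (median 0.06, sums of 475 and 478 RPKM). Slc1a2 was the highest at 169 RPKM in Control, and the markers with lower means were Gfap (-0.41) and Gja1 (-0.03). Of 3 cerebellar markers, 2 were in the table and neither reached 0.5 RPKM (Cbln3 on 13 and 6 fragments, Pcp2 on 3 and 0 fragments).

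Most markers of neighbouring regions and of oligodendrocytes had lower means in CUMS. Septum and hypothalamus markers had lower means in 5 of the 6 genes in the background (median -1.83). Over all 8 genes of this list the sums were 141 and 82.3 RPKM, most of it from Hap1. Avp in both groups, Hcrt in Control, and Oxt and Gal in CUMS were at or under 3 fragments. Olfactory bulb markers had lower means in 5 of 5 genes (median -1.61, sums of 31.0 and 12.8 RPKM, Doc2g the highest in Control). Striatal markers had lower means in 6 of 6 genes (median -0.27, sums of 315 and 271 RPKM, Ppp1r1b the highest), and thalamic markers in 4 of 5 genes (median -0.29, sums of 23.9 and 10.6 RPKM, with Prkcd the highest in Control). Of the thalamic markers, only Prkcd (17.2 RPKM in Control, 4.3 RPKM in CUMS) had an interval below equal expression. This is 1 of 5, where the background had 18.2%. The other 4 had intervals that included it. Mature oligodendrocyte markers had lower means in 7 of 7 genes (median -0.56, sums of 1866 and 1266 RPKM, Mbp the highest), and precursor markers in 3 of 4 genes (median -0.14, sums of 44.2 and 38.6 RPKM, Gpr17 the highest).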

How the data were processed

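RNA-seq reads of 4 mPFC libraries (2 Control, 2 CUMS, grouped by their sample titles) had been filtered with SolexaQA and aligned to mm10 with TopHat 1.0.12 and Bowtie 0.11.3, per the submitters' notes. Neither the gene models nor the strand setting of the counting was given in the sources used here. The authors deposited RPKM per gene as 1 mean per group. Their ratio and NOISeq probability columns hold their own comparison and were not used, and no column held values of a single library. A value of 0.01 RPKM (590 genes in Control, 619 in CUMS) was read as 0. Whether each library came from 1 mouse was not given in the sources used here.

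Depth was unknown and was estimated from low values of genes of 300.0 to 2000 bases. The product of mean and length rises in fixed steps with each fragment once the length is shortened by 74 (Control) or 76 (CUMS) bases, and 91.3% and 89.6% of products lay within 0.15 of a whole step. The authors' read totals are larger, and the difference was not resolved. Intervals of a ratio are exact Clopper-Pearson, those of a level exact Poisson, and those of a share or summed ratio come from error propagation on the log scale. They cover counting error only, and fragments that are PCR copies are not independent molecules. The procedure was run on data simulated with a depth and a shortening close to the fitted ones. This run cannot bear on the gap to the authors' read totals. Calls were a fold above 1.5, or an interval that excluded equal expression, among genes that reached 0.5 RPKM in Control or CUMS. No test over samples was possible with 1 mean per group.

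The members and gene lists were chosen with earlier results of these data known. Named were all members, the genes of each partner list past 1.5-fold, its 2 highest and 2 lowest ratios and its most abundant gene, and the highest gene of each marker list with those at or under 3 fragments. A few further markers (Gad1, Gad2, Vip, Gfap, Gja1 and Cbln3) were named after their values were seen. Spans are from RefSeq (GRCm38.p6), matched by gene identifier. Python 3.11.15, numpy 2.4.6, scipy 1.17.1 and pandas 2.3.3 were used. The matching stretch of the NMDA genes is not reported here.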

Additional observations from a re-analysis of the deposited data

How the results depend on the processing

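Of 102 values computed under alternatives, 93 kept their call or stayed within counting error (counts within 1.5-fold). A reversal was defined only for the log2 ratios of members whose interval excluded equal expression, and 0 of these reversed. This count is no check. The rescalings of CUMS shifted these ratios by less than their size, and a pseudocount cannot change a sign. Some partner list medians near 0 changed sign within counting error and were counted as kept. No member passed 1.5-fold under either rescaling of CUMS, with a fold above 2 in its place, or with no minimum or a minimum of 5 RPKM. These outcomes were fixed beforehand and are no check, although they are among the values that kept their call. The largest member fold was 1.36 (Grin2d), and the rescalings shifted log2 ratios by only 0.015 and -0.0076. A higher fold or another minimum could add no member. At a lower threshold of 0.32 on the log2 scale, 2 members passed. The number of members whose interval excluded equal expression was 3. It remained 3 at 0.5 of the estimated depth, after rescaling to an equal total, and with the depth estimated on the whole length (chosen after seeing the data), was 4 once CUMS was rescaled so that the background's median log2 ratio was 0, a shift of 0.015 (with Gria4 in addition, above equal expression; the ratios of Gria3 and Grin1, near 0, then became positive), and was 5 at 2 times the depth (with Gria2 and Gria4 in addition), as more fragments narrow every interval by construction. With the longest annotated transcript as the gene length, the Gria2 share of the AMPA sum was 16.5% in Control and 16.6% in CUMS, the Grin2 sum over Grin1 was 0.126 in Control, and the AMPA sum over the NMDA sum was 0.773 in Control and 0.766 in CUMS. Levels between genes thus depend on the length. Each gene was rescaled by the same factor in both groups, and no reads were added for the added length. This alternative is therefore no check of the change between groups. The median marker ratios with a pseudocount of 0.5 RPKM were -1.34 for septum and hypothalamus and -0.95 for olfactory bulb, and that of the NMDA genes was -0.06. With no minimum, which adds Dao (0 and 1 fragments), the co-agonist median was 0.11.

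No paired analysis was possible because each gene had 1 averaged value per group. For the same reason leaving out each replicate and the replicate block were not run.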

Other observations

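Grin3b, the remaining GluN3 gene, is no member of the set described above. It had 0.305 RPKM in Control and 0.145 RPKM in CUMS, on 16 and 8 fragments, and stayed under the minimum of 0.5 RPKM (log2 ratio -1.07, counting interval -2.45 to 0.29).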
